A study of Homo sapiens with 6 samples.

Results

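This account concerns 10 genes of necroptosis and death-receptor signalling in HCT116 human colon carcinoma cells. They are TNFSF10, TNFRSF10A, FADD, CASP8, CASP10, CFLAR, ZBP1, RIPK1, RIPK3 and MLKL. A gene was taken from probe sets annotated with its symbol alone, and 9 of the 10 had such a probe set, out of 13139 genes measured in this way. RIPK1 was not analysed here. The set was chosen by measured values of this same comparison, because MLKL and CASP10 had lower values in the knockout. The knockout and wild-type values of the members are therefore given as a description, without a p-value.

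The arrayed cells were BRCA2 knockout HCT116 cells (3 arrays) and wild-type HCT116 cells (3 arrays), both kept in McCoy's 5A medium with fetal bovine serum and labelled with no treatment. Both alleles of BRCA2, which encodes a mediator of homologous recombination, had been targeted one after the other in the knockout, and the wild-type line came from a cell repository. RNA came from 3 frozen samples of each genotype, but the labels call the arrays technical replicates and name no separate cultures, so any p-value below measures the spread between arrays only. The labels speak of BRCA2-deficient lines without saying which clone or clones were arrayed, so the loss of BRCA2 and other differences between the lines cannot be told apart. Transcripts were measured on Affymetrix whole-transcript arrays as log2 probe set values, on which a difference of 1 is a doubling or halving. BRCA2 itself was not analysed here, so the genotypes were not checked on the targeted gene.

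Necroptosis is a lytic form of cell death. Receptors or sensors bring the kinases RIPK1 and RIPK3 together through a shared motif, RIPK3 phosphorylates the pseudokinase MLKL, and MLKL then permeabilises the plasma membrane. Death receptors such as that for TRAIL instead recruit the adaptor FADD and the initiator caspases CASP8 and CASP10, which start apoptosis, and CASP8 together with the FLIP protein encoded by CFLAR restrains the necroptotic kinases. Many colorectal cancer lines express little RIPK3. MLKL, ZBP1, TNFSF10 and CASP8 are known as interferon-inducible genes, and the series was deposited as a study of interferon-related genes.

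The stretches just before the starts of MLKL and TNFSF10 are shown because both genes are known interferon targets and these windows share a match to the core recognised by interferon regulatory factors. The sequences are RefSeq promoters of the build GRCh38.p14, restricted to the 250 bases before the gene's start and written 5′ to 3′ on the gene's strand. The MLKL window is chr16:74700863-74701112 on the minus strand, and the TNFSF10 window is chr3:172523431-172523680, also on the minus strand. Capitals mark matches to AANNGAAA on either strand.
MLKL: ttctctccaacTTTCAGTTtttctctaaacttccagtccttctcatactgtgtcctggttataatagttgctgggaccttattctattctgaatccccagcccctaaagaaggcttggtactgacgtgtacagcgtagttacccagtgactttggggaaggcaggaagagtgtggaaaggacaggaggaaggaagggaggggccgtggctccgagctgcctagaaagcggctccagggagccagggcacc
TNFSF10: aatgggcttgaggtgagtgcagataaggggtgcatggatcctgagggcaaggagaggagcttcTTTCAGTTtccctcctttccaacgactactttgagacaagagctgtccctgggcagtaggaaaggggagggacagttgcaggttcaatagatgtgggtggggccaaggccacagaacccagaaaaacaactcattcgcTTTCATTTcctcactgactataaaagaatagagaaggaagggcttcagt

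The MLKL window held 1 match, TTTCAGTT, which is the core read on the opposite strand, and it lay 239 to 232 bases before the start. The TNFSF10 window held 2 matches. The more distant of them had the same 8 letters TTTCAGTT and lay 187 to 180 bases before the start, and the nearer one, TTTCATTT, lay 49 to 42 bases before it. Among all 35116 promoter windows of this length, 20.3% held at least 1 match to AANNGAAA, so a match is common. Neither window held TTCNNNGAA, the letters of the gamma-activated site to which STAT dimers bind, which 6.57% of all windows held. The MLKL window had 5 CpG dinucleotides and the TNFSF10 window 2, where the median window had 11. Promoter windows were matched for 5 members, the others being CASP8 (3 starts), CFLAR (4 starts) and FADD (1 start). Among the CASP8 windows, 1 held AAGGGAAA and another TTCCAAGAA, 1 CFLAR window held 2 matches to AANNGAAA, and the FADD window held no match and 32 CpG dinucleotides.

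The arrays differed in their overall level, which bears on members with small differences. The median log2 value over 19458 probe sets was 7.41, 7.80 and 7.41 on knockout arrays 1, 2 and 3, against 7.71, 7.36 and 7.48 on wild-type arrays 1, 2 and 3. Knockout array 2 and wild-type array 1 had the highest medians. Over all probe sets the correlation between these arrays was 0.924. Knockout array 2 correlated with knockout arrays 1 and 3 at 0.876 and 0.893, and with wild-type arrays 2 and 3 at 0.875 and 0.903. The epithelial markers EPCAM and KRT8 had values of 9.75 to 10.31 and 12.94 to 13.11 on the knockout arrays, against 9.47 to 10.10 and 11.98 to 12.80 on the wild-type arrays. The differentiation markers KRT20 and VIL1 were at 4.76 to 6.91 on the knockout arrays and 5.14 to 6.09 on the wild-type arrays. All 11 colon epithelium markers had positive differences. None was called in limma, beside 0.570% of all probe sets. In limma 1 was under an unadjusted p of 0.05, beside 12.2% of all probe sets, and 2 were without moderation. Arrays did not overlap for 4 of 11, beside 19.7% of all probe sets. The list mean was 8.45 to 9.13 on the knockout arrays and 8.26 to 8.60 on the wild-type arrays. CDH1, the adhesion molecule E-cadherin, had the largest difference of the 11, 1.15 (limma adjusted p = 0.127). The mean over 5 of 8 markers of blood cells was 5.98 to 6.72 on the knockout arrays and 5.76 to 6.72 on the wild-type arrays. That over 8 of 8 markers of fibroblasts and endothelium was 6.09 to 6.99 on the knockout arrays and 5.84 to 6.68 on the wild-type arrays. Positive differences were found for 4 of the 5 blood markers (median 0.50) and 7 of the 8 fibroblast and endothelial markers (median 0.36). The collagen gene COL1A1 was at 8.68, 8.38 and 8.84 in the knockout, against 7.66, 7.57 and 7.38 in the wild type, without overlap (difference 1.10, limma adjusted p = 0.159). The part of these lists in the results below was not tested.

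Among the members, the executioner of necroptosis and 1 initiator caspase were lower in the knockout, and the other 7 had differences within 0.6 of 0. MLKL and CASP10 were the 2 members whose arrays did not overlap between the genotypes. In the limma fit over all probe sets, 1 of the 9 measured members, MLKL, was called at an adjusted p under 0.05, against 0.570% of all probe sets, and with any 1 array left out none was. Both MLKL and CASP10 were under an unadjusted p of 0.05, against 12.2% of all probe sets. For 19.7% of all probe sets the knockout and wild-type arrays had no overlap. Since this contrast chose the members, nothing is read from these counts. The median log2 difference, knockout minus wild type, was 0.07 over the 9 members and 0.02 over all probe sets.

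**Figure D1:**
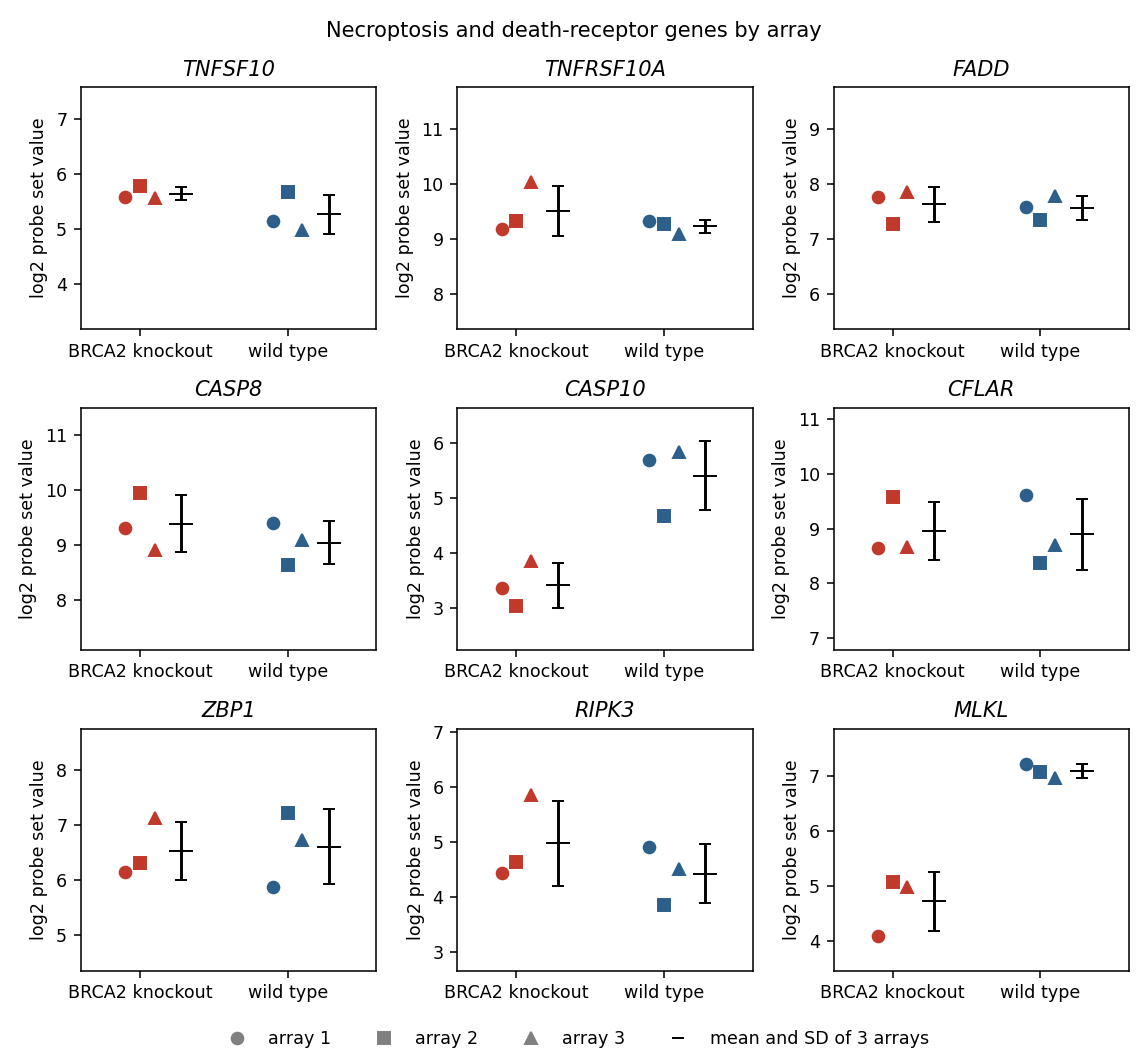
Log2 probe set values (vertical axes, each spanning the same range) of the 9 measured members on the 3 knockout arrays (red) and the 3 wild-type arrays (blue), with the mean and SD per genotype in black. The knockout points of MLKL and CASP10 lie below all of their wild-type points, and the points of the other 7 genes overlap.

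TNFSF10 encodes TRAIL, a ligand that triggers apoptosis through its receptors. Its log2 values were 5.59, 5.77 and 5.56 on knockout arrays 1, 2 and 3, against 5.14, 5.67 and 4.98 on wild-type arrays 1, 2 and 3. Wild-type array 2 lay inside the range of the knockout, and the genotypes overlapped. The difference was 0.38 ± 0.28 (SE, n = 3 arrays per genotype). TNFRSF10A, which encodes the TRAIL receptor DR4, had values of 9.18, 9.33 and 10.04 in the knockout and 9.33, 9.27 and 9.10 in the wild type. Only knockout array 3 stood clearly above the wild-type range, and the difference of 0.28 ± 0.31 was 0.03 without that array.

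FADD, the adaptor that links death receptors to initiator caspases, was at 7.77, 7.28 and 7.86 in the knockout and at 7.59, 7.34 and 7.78 in the wild type. Array 2 was the lowest of each genotype and the ranges nearly coincided, with a difference of 0.06 ± 0.28. CASP8, the initiator caspase that also cleaves the necroptotic kinases, was at 9.30, 9.95 and 8.91 in the knockout, against 9.40, 8.63 and 9.10 in the wild type. CFLAR, whose FLIP proteins restrain CASP8 at the receptor, was at 8.64, 9.57 and 8.66 in the knockout and at 9.61, 8.37 and 8.69 in the wild type. Both genes were highest on knockout array 2 and wild-type array 1, the arrays with the highest medians over all probe sets. What part of this order came from array level was not tested. The differences were 0.35 ± 0.36 for CASP8 and 0.07 ± 0.43 for CFLAR. After median centring they were 0.32 and 0.04, and after quantile normalization 0.28 and -0.0018.

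CASP10, the initiator caspase most like CASP8 and known to be recruited to the same receptor complexes, was at 3.37, 3.04 and 3.85 on the knockout arrays. On the wild-type arrays it was at 5.71, 4.69 and 5.84. The highest knockout array lay 0.83 below the lowest wild-type array. The means were 3.42 ± 0.41 in the knockout and 5.41 ± 0.63 in the wild type (SD, n = 3), a log2 difference of -1.99 ± 0.40 (SE) or 3.98-fold lower in the knockout. All 3 knockout values were under 4, low on the scale of these arrays. With values under 4 set to 4, the difference was -1.41, so the size of the difference depends on how such low values are treated.

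ZBP1, a sensor of Z-form nucleic acids that engages RIPK3, was at 6.15, 6.31 and 7.13 in the knockout and at 5.88, 7.22 and 6.72 in the wild type. The wild-type arrays spanned the whole range of the knockout arrays, and the difference was -0.07 ± 0.44. RIPK3, the kinase that activates MLKL, was at 4.43, 4.63 and 5.86 in the knockout and at 4.91, 3.85 and 4.51 in the wild type. Knockout array 3 alone stood above the wild-type range. The RIPK3 difference of 0.55 ± 0.47 was 0.11 without that array. By mean over the 6 arrays, RIPK3 and TNFSF10 were among the dimmest 30% of probe sets.

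MLKL was at 4.10, 5.09 and 4.98 on the knockout arrays and at 7.23, 7.09 and 6.97 on the wild-type arrays. The wild-type arrays were close together, and the highest knockout array lay 1.89 below the lowest of them. The means were 4.72 ± 0.54 in the knockout and 7.09 ± 0.13 in the wild type (SD, n = 3), a log2 difference of -2.37 ± 0.33 (SE) or 5.18-fold lower in the knockout. Of 13121 genes that could be placed on a chromosome, 59 had a more negative difference than MLKL and 88 than CASP10. Both genes were chosen for their low values, so these ranks are a description only. In bulk RNA, fewer cells with a transcript and less of it per cell cannot be told apart. The MLKL difference changed little with scaling, at -2.40 after median centring and -2.32 after quantile normalization. MLKL and CASP10 were also among the dimmest 30% of probe sets by mean over the 6 arrays, which bears on the size of their fold differences.

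**Figure D2:**
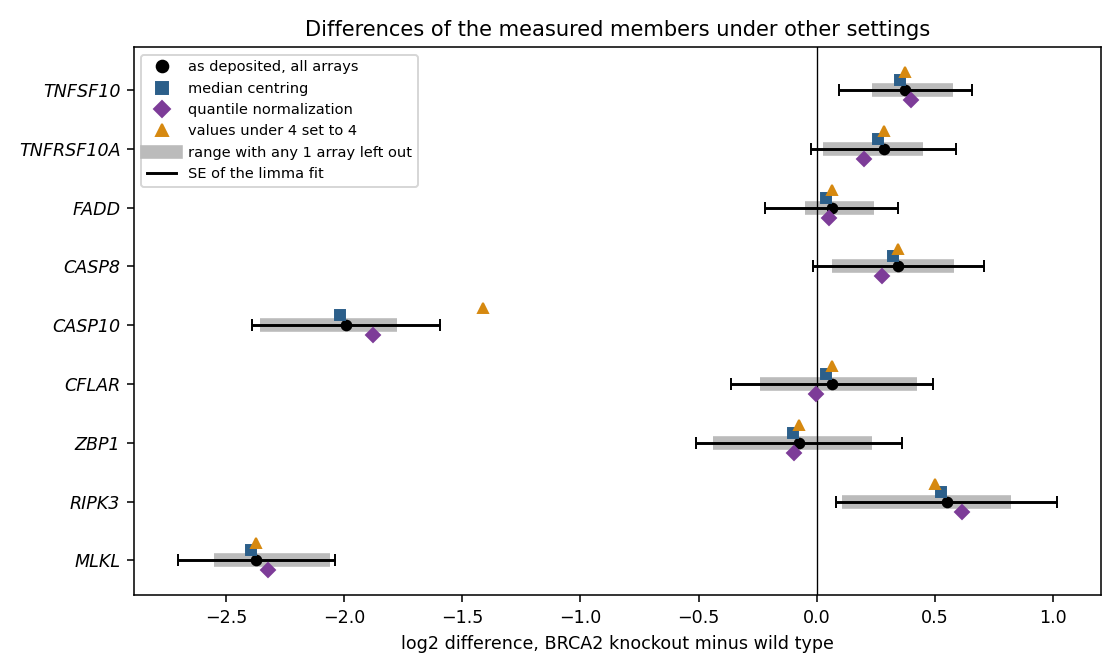
Log2 differences, knockout minus wild type, of the 9 measured members (rows), as deposited with the SE of the limma fit, under 3 other settings (coloured markers) and over the range found with any 1 array left out (grey bars). MLKL stayed between -2.55 and -2.06 with any 1 array left out and CASP10 between -2.36 and -1.78, whereas the bars of FADD, CFLAR and ZBP1 cross 0.

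The members could also be compared by their place in the genome. The choice of the set did not use place, but it rested on the MLKL and CASP10 differences themselves. How low these genes stand beside their neighbours is therefore a description only. CFLAR, CASP10 and CASP8 are neighbours on chromosome 2, in that order. The initiator caspase in the middle was at -1.99, while CFLAR on one side was at 0.07 and CASP8 on the other at 0.35. Of the 8 nearest measured genes outside the cluster, 4 on each side, 4 were lower and 4 higher in the knockout. None of these 8 was called in limma (0.570% of all probe sets were), none was under an unadjusted p of 0.05 (12.2%), and none had arrays without overlap (19.7%). Their differences ran from -0.83 in FLACC1 to 0.51 in HYCC2, with a lowest adjusted p of 0.659.

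MLKL lies on chromosome 16, and the genes around it were mostly lower in the knockout. Of its 8 nearest measured neighbours, 7 were lower, and for 6 of these all knockout arrays lay below all wild-type arrays. Over all probe sets, 19.7% had no overlap in either direction. GLG1, which encodes a Golgi glycoprotein, was at 9.47, 9.68 and 9.67 in the knockout and at 11.17, 10.93 and 10.97 in the wild type, a difference of -1.41 ± 0.24 (limma adjusted p = 0.0727). RFWD3, a ubiquitin ligase of DNA crosslink repair and the measured gene next to MLKL on one side, was at 7.51, 8.18 and 7.67 in the knockout, against 9.23, 8.82 and 8.94 in the wild type (difference -1.21 ± 0.29, limma adjusted p = 0.165). The genotypes stood apart for both of these genes, though neither passed the adjusted threshold.

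FA2H, a fatty acid hydroxylase gene on the other side of MLKL, was the only one of the 8 with a positive difference, 0.27 ± 0.36. Beyond it WDR59, a regulator of the mTORC1 kinase, was at -1.28 ± 0.29, ZNRF1 at -0.57 ± 0.31 and LDHD at -0.48 ± 0.33. On the far side of RFWD3 and GLG1, ZFHX3 was at -1.35 ± 0.38 and PMFBP1 at -1.78 ± 0.29. None of the 8 was called in limma (lowest adjusted p = 0.0620), and 5 were under an unadjusted p of 0.05, beside 12.2% of all probe sets. MLKL had a more negative difference than each of these 8 neighbours, a rank that its choice by low values favours.

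**Figure D3:**
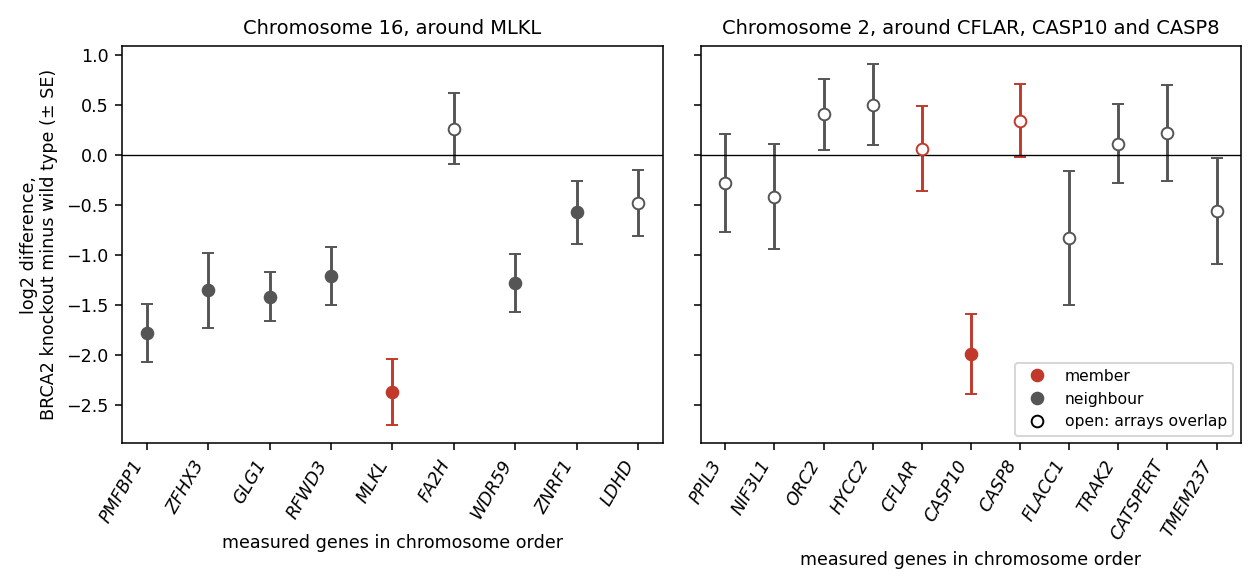
Log2 difference, knockout minus wild type, with its SE (vertical axis) for MLKL and its 4 nearest measured genes on each side (left) and for CFLAR, CASP10 and CASP8 with theirs (right), in chromosome order. Filled points mark genes whose arrays did not overlap, which were MLKL with 6 of its 8 neighbours on the left and CASP10 alone on the right.

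A wider stretch was examined after these neighbours had been seen, and is described without a test. Among the 10 measured genes on each side of MLKL, 17 of 20 were lower and the median difference was -0.92. Of the 20, 15 were lower without overlap between the genotypes, where 19.7% of all probe sets had no overlap in either direction. Among the 10 on each side of CASP10, 10 of 20 were lower, 0 were lower without overlap and the median difference was 0.00. Set against the median of the 20 neighbours, MLKL stood at -1.45 and CASP10 at -1.99. Both genes were chosen for their low values, so nothing is read from these distances. Around the other 7 members the median of the 20 neighbours lay between -0.15 and 0.36.

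Chromosome 16 was then divided into blocks of 20 consecutive measured genes. Blocks 17 to 23, which begin at MT1G and end at WWOX, had median differences of -0.56 to -0.92, and MLKL is in block 23. In the 16 blocks before them the median was between -0.02 and 0.40. Of 643 full blocks in the genome, 11 had a median at or under -0.5, of which 7 were these and 4 were on the first parts of chromosomes 9 and 10. The 7 blocks were picked by their low medians in this same comparison, so counts and levels within them are a description only. Of the 139 genes in the 7 blocks other than MLKL, 108 were lower in the knockout, 79 were lower without overlap and 4 were higher without overlap. Arrays had no overlap for 59.7% of the 139, beside 19.7% of all probe sets. The median level of these 139 genes was 7.51, 7.75 and 7.53 on knockout arrays 1, 2 and 3, against 8.22, 8.25 and 8.10 on wild-type arrays 1, 2 and 3. All 3 knockout arrays were below all 3 wild-type arrays, knockout array 2 with the highest overall median included. The arrays measure RNA, and the DNA copy number of the lines, which would bear on what the MLKL difference means, was not tested. None of the 139 had a more negative difference than MLKL. MLKL was chosen for its low values, so nothing is read from this rank.

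**Figure D4:**
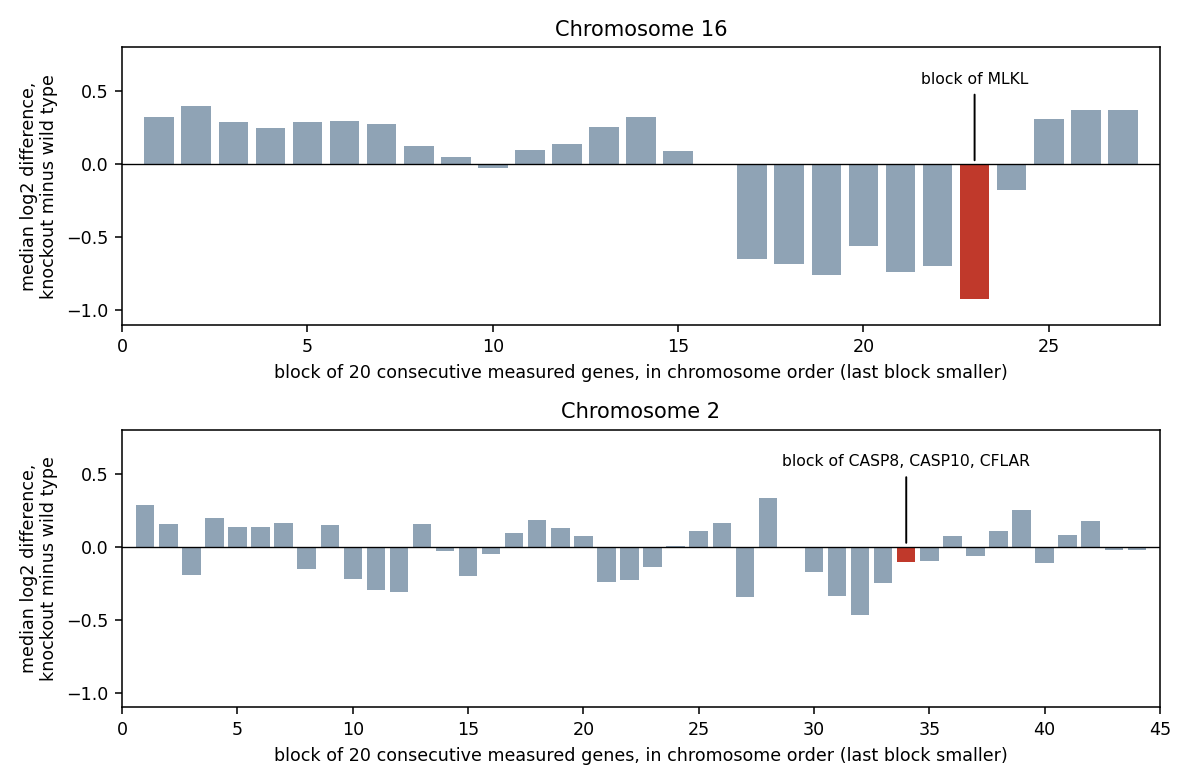
Median log2 difference, knockout minus wild type (vertical axis), in blocks of 20 consecutive measured genes along chromosome 16 (top) and chromosome 2 (bottom), with the block that holds the named members in red. Blocks 17 to 23 of chromosome 16 lie between -0.92 and -0.56 and include that of MLKL, while the block of CFLAR, CASP10 and CASP8 is at -0.11.

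The genes whose values followed those of MLKL most closely over the 6 arrays included 2 from the same 7 blocks. Among 10216 genes with a mean of at least 6, the highest Pearson correlations with MLKL were 0.995 for DHODH, 0.993 for ZNF653, 0.993 for C6orf141 and 0.993 for GOT2. DHODH and GOT2 lie on chromosome 16 in blocks 22 and 18, and C6orf141 had a difference of -2.35, close to that of MLKL. For CASP10 the highest were PLGRKT (0.991), IGBP1 (0.985), EID1 (0.974) and XPNPEP1 (0.970), on chromosomes 9, X, 15 and 10. PLGRKT lies in the first block of chromosome 9, which is among the 11 blocks of low medians, at -0.91. These correlations rest on 6 arrays in 2 groups and share the genotype difference, so they are a description only.

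The other genes of the same pathways were also compared. Of 67 measured genes in 5 lists, 43 had a positive and 24 a negative log2 difference, and the median was 0.29. Among all probe sets, 51.3% had a positive difference and the median was 0.02. None of the 67 was called in limma over all probe sets, against the 0.570% above, and none in the fit without moderation. With 3 arrays per genotype, the absence of a call does not show that a gene was unchanged. At an unadjusted p under 0.05 there were 8 higher and 2 lower genes in limma, or 10 of 67, which is near the 12.2% of all probe sets. The fit without moderation gave 11. Arrays did not overlap for 17 genes, 14 higher and 3 lower, or 25.4% of the 67, beside 19.7% of all probe sets.

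Among death receptors and their ligands, 9 of 11 were higher (median 0.29). TNFRSF21, which encodes death receptor 6, was at 9.46, 10.27 and 9.41 in the knockout, against 8.83, 8.44 and 9.07 in the wild type, a difference of 0.93 ± 0.34 (limma adjusted p = 0.334). The knockout arrays were all above the wild-type arrays, but the difference did not pass. The other receptors for TRAIL had overlapping arrays, with differences of 0.34 for the signalling receptor gene TNFRSF10B, 0.53 for the decoy receptor gene TNFRSF10C (0.51 for its other probe set) and -0.32 for the decoy receptor gene TNFRSF10D.

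Among adaptors, ubiquitin ligases, deubiquitinases and kinases that act on the receptor complex, whose members include brakes on cell death and genes that favour it such as CYLD, 11 of 18 were higher (median 0.36). IKBKE, a kinase related to TBK1, was at 7.63, 8.27 and 7.86 in the knockout and at 7.39, 6.72 and 6.92 in the wild type (difference 0.91 ± 0.31, limma adjusted p = 0.297). TRADD, the adaptor of the TNF receptor, was at 6.61, 7.26 and 7.72 in the knockout and at 7.95, 8.32 and 7.95 in the wild type (difference -0.88 ± 0.34, limma adjusted p = 0.374). The arrays of both genes did not overlap, in opposite directions. TRADD lies in block 19 of chromosome 16, among the 7 blocks of low medians, whereas the deubiquitinase gene CYLD in block 16 had a difference of 0.00. From the marker lists, CDH1 and the endothelial gene CDH5 are also on chromosome 16. Both had positive differences, 1.15 for CDH1 without overlap and 0.46 for CDH5 with overlap.

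Among the genes that carry out apoptosis, 8 of 11 were higher (median 0.16). APAF1, the scaffold of the apoptosome, was at 5.78, 7.28 and 5.88 in the knockout and at 8.12, 6.81 and 7.17 in the wild type, and its arrays overlapped (difference -1.05 ± 0.52, limma adjusted p = 0.479). CASP9, the caspase that APAF1 activates, was at 7.75, 8.45 and 8.19 in the knockout and at 7.63, 7.43 and 7.26 in the wild type (difference 0.69 ± 0.29, limma adjusted p = 0.397).

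Among triggers of necroptosis and genes that modify MLKL, 9 of 17 were higher (median 0.29). TLR3, a receptor for double-stranded RNA that signals to the necroptotic kinases, was at 6.32, 7.90 and 6.50 in the knockout and at 6.16, 5.01 and 5.79 in the wild type (difference 1.26 ± 0.51, limma adjusted p = 0.383). AXL, a receptor kinase of a family reported to phosphorylate MLKL, was at 9.55, 9.73 and 9.81 in the knockout and at 10.87, 10.99 and 10.46 in the wild type. Its arrays stood clearly apart, with a difference of -1.08 ± 0.26 (limma adjusted p = 0.173, and 0.0155 to 0.695 over 16 other settings, where it passed only with a variance trend). The 2 probe sets of the ESCRT gene CHMP4B, whose complex repairs membranes breached by MLKL, disagreed at -0.40 and 0.96.

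Among genes of pyroptosis, the other lytic form of cell death, 6 of 10 were higher (median 0.29). CASP5, an inflammatory caspase, was at 6.30, 6.83 and 6.16 in the knockout and at 6.02, 5.28 and 6.09 in the wild type (difference 0.63 ± 0.34, limma adjusted p = 0.509).

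**Figure D5:**
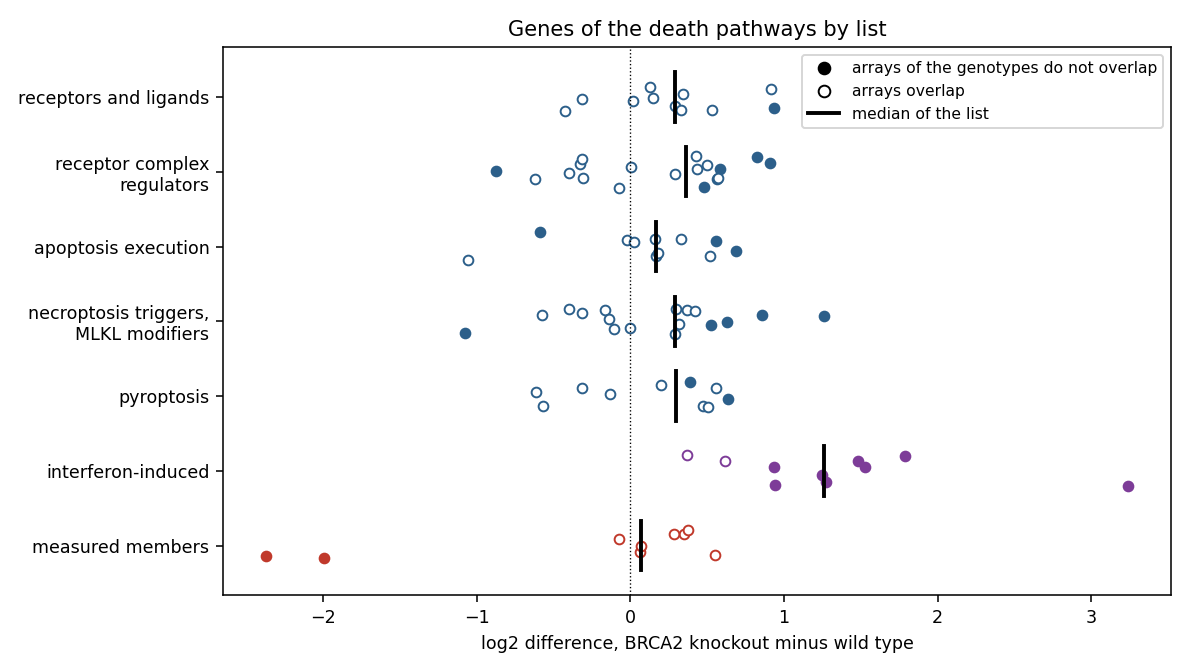
Log2 difference, knockout minus wild type (horizontal axis), of each measured gene in 5 death pathway lists, in the interferon-induced list and among the 9 members, with the median of each list as a black bar. MLKL and CASP10, the 2 filled red points, were chosen for their low values and lie further to the left than every gene of the other lists.

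Genes induced by interferon, as MLKL is known to be, were set beside the members. A short list was prompted by the title of the series. It was chosen with earlier results of these data known, so its counts are a description only. Of its 10 measured genes, 10 had a positive difference, with a median of 1.26 beside 0.02 over all probe sets. For 8 of the 10 the arrays did not overlap, beside 19.7% of all probe sets. The genotypes overlapped for MX1 (0.37) and OAS1 (0.62), and 2 of the 10 were called in limma, beside 0.570% of all probe sets. The called genes were IFIT2, which encodes an interferon-induced RNA-binding protein, and IFI44, in limma at 1.79 ± 0.25 (adjusted p = 0.0387) and 3.24 ± 0.48 (adjusted p = 0.0459). IFIT2 was at 7.44, 7.15 and 7.45 in the knockout, against 5.71, 5.57 and 5.40 in the wild type. IFI44 was at 4.64, 6.16 and 4.42 in the knockout, against 1.77, 1.65 and 2.09 in the wild type, where the values are low on the scale. With values under 4 set to 4 the limma adjusted p of IFI44 was 0.380, and over 15 other settings it was 0.0115 to 0.380, passing in 4. IFIT2 had 0.00530 to 0.420 over 16 other settings, passing in 8 and in none of those with 1 array left out. Among the interferon-inducible members, TNFSF10 was at 0.38, CASP8 at 0.35, ZBP1 at -0.07 and MLKL at -2.37.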

How the data were processed

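Each of the 6 arrays gave 19458 probe set values. The authors deposited log2 values. The submitters' processing notes list hg18, R 2.11.1 and RMA. The steps run and any filter are not given in the sources used here, and the log2 scale was read from the values, which reach 14.0 to 14.1. The arrays' medians differ, so the deposited probe set values do not share 1 distribution across arrays. Whether a quantile step was used before the probe sets were summarized is not known. Of the probe sets, 13301 had 1 gene symbol in the platform annotation, 2044 several and 4113 none. Of several probe sets of a gene, that of highest mean stood for it. RefSeq (GRCh38.p14) gave gene order only, and the promoter sequences. Genotypes were compared with limma 3.58.1 (R 4.3.3) on the values as deposited, with no filter and Benjamini-Hochberg adjustment across every probe set on the array, and an adjusted p under 0.05 counted as a call. The code was tested on simulated data. Precision is limited by the 6 arrays.

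The members and gene lists were chosen with earlier results of these data known. Named were all members, the member of largest difference in each pathway list and, where its arrays did not overlap, the largest in the other direction, the 4 nearest measured genes on either side of MLKL and of the CASP10 cluster, and the 4 genes most like MLKL and CASP10. The other TRAIL receptors, CHMP4B, CYLD, the interferon-induced genes called and the markers printed were named outside this rule. The wider windows and the blocks were added after the neighbours had been seen. Alternatives tried were quantile normalization, median centring, a floor of 4, leaving out the dimmest 30%, a variance trend, robust variance, no moderation, array weights, a replicate block, leaving out arrays and other ways to represent a gene.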

Additional observations from a re-analysis of the deposited data

How the results depend on the processing

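Of 187 values for single members, for the members' median and for the windows around MLKL and CASP10 under other settings, 186 stayed within 1 SD of the value as deposited, and the other was CASP10 at -1.41 with values under 4 set to 4. The variance trend, robust variance, no moderation and replicate block cannot change a mean difference here. Their values equal those as deposited by construction, so this part of the count says nothing about stability. MLKL ran from -2.55 to -2.06 and the median of its 20 neighbours from -1.03 to -0.84, while that around CASP10 ran from -0.43 to 0.21. The sign changed under some settings for FADD (-0.05 to 0.25), CFLAR (-0.24 to 0.43) and ZBP1 (-0.44 to 0.23). Members called numbered 1 as deposited and 2 with array weights (MLKL and CASP10). The number was 0 with the dimmest 30% left out, where MLKL, CASP10, RIPK3 and TNFSF10 were not among the probe sets kept. It was also 0 without moderation, 0 with the replicate block, 0 with any 1 array left out and 0 without the array of highest median of each genotype. Other pathway genes called numbered 0 except for 1, AXL, with a variance trend, and 0 with any 1 array left out. Probe sets called numbered 111 as deposited (81 higher and 30 lower), 175 after median centring, 174 after quantile normalization, 184 without the dimmest 30%, 169 with the floor of 4, 396 with a variance trend, 778 with array weights (454 higher and 324 lower), 86 without moderation, 3 with the replicate block, 24 to 63 with any 1 array left out and 7 without the array of highest median of each genotype. Arrays of the same number did not deviate together (r = -0.24, -0.43 and 0.06 for numbers 1, 2 and 3), so no pairing by number was seen. Deviations from a mean of 3 arrays depend on each other, so these values cannot settle whether the arrays were paired. The highest r of such deviations between the genotypes was 0.49, for wild-type array 1 and knockout array 2. Each measured member has 1 probe set, so other ways to represent a gene gave the same values for the members.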
